A study of Saccharomyces cerevisiae with 36 samples.

Results

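NCYC361 is a natural isolate of the budding yeast Saccharomyces cerevisiae, and its transcript levels in YPD, a rich laboratory medium with glucose as the sugar, were set against those of 5 other natural isolates in the same medium. The rule took the 2 NCYC361 libraries in YPD, labelled biological replicates from different days, and the 10 YPD libraries of the other strains (2 each), which makes 12 of the 36 libraries of the series. NCYC361 is labelled sensitive to SynH, a synthetic lignocellulosic hydrolysate with toxins. Among the other strains the labels call K11 sensitive and NCYC3290 medium, and give UWO.S05.22-7, YPS128 and Y7568 as resistant. All 6 were also grown in SynH and in SynH -HTs, the hydrolysate without its toxins, and each culture was kept in its medium for at least 3 generations and taken at an OD600 near 0.5. Each strain is a single isolate with its own genetic background, so a difference of NCYC361 cannot be tied to any 1 gene or to the resistance label.

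Of 6717 features in the deposited table, the 5942 with a mean of at least 1 RPKM (reads scaled to gene length in kilobases and to library size) over the 12 YPD libraries were tested. A difference is the mean log2 RPKM of NCYC361 minus the mean of the 5 other strain means, and limma tested it on the 6 strain means, with Benjamini-Hochberg adjustment over the 5942 genes and a threshold of 0.05. Reads in genes numbered 2578219 and 3249596 in the NCYC361 libraries, against 2616221 to 7304645 in those of the other strains. The median of all differences was not 0 but 0.62. The top 100 genes held 37.0 to 37.5% of the reads in NCYC361, against 41.8 to 45.9% in the other strains, and the part of that difference in the shift was not tested. Log2 differences within YPD are given relative to that median, as the difference minus 0.62, with the standard error (SE) of the fit, unless they are called unshifted. The median also fell with level. It was 1.16 for the 915 tested genes with a mean log2 RPKM up to 2, and 1.06 for the 1890 from 2 to 4. It was 0.48 from 4 to 6, -0.08 from 6 to 8, -0.55 from 8 to 10 and -1.59 for the 148 above 10. Subtracting 0.62 does not remove this trend, so medians and shares over all genes are not matched by level. The test as deposited was of the unshifted difference against 0. A printed p as deposited therefore belongs to that difference, and not to the relative one beside it. Calls were repeated after giving all libraries the same median and after quantile normalization, and a gene called "under all 3 scalings" passed in the same direction each time. RPKM values include the read that the authors added before taking the log2. In a bulk culture, a change in every cell and a change in a part of the cells cannot be told apart.

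Yeast takes up iron with a small set of genes that the transcription factors Aft1 and Aft2 switch on when iron runs short. Cell wall mannoproteins hold iron-loaded siderophores (iron chelators), surface reductases free and reduce the iron, the oxidase Fet3 with the permease Ftr1 carries it in, and the Arn transporters take up whole siderophores. Fet3 needs copper, so copper uptake and iron uptake are linked. Iron is used above all in heme and in iron-sulfur clusters, which the respiratory chain and several biosynthetic enzymes carry, and cells short of iron are known to cut the transcripts of such proteins. Ribosomal protein genes, in contrast, are known to follow growth, and the general stress genes driven by Msn2 and Msn4 tend to move the other way.

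NCYC361 stood far apart from the other strains in YPD. The test called 1973 genes (33.2% of those tested), 1504 higher in NCYC361 and 469 lower. With all libraries at the same median it called 1354, 447 higher and 907 lower, and after quantile normalization 1522, 638 higher and 884 lower, so the balance of directions follows the scaling. Under all 3 scalings 399 genes (6.71%) were higher and 417 (7.02%) lower. Both NCYC361 libraries lay above all 10 others for 2617 genes (44% of those tested) and below all 10 for 678 (11.4%). When each other strain was set in the same way against its 5 others, the test called 0 genes for UWO.S05.22-7 and NCYC3290, 1 each for Y7568 and YPS128 and 3 for K11 (0 to 0.0505% of those tested), and with all libraries at the same median 0 to 7 (0 to 0.118%), UWO.S05.22-7 then having 2 (0.0337%). Those comparisons hold NCYC361 among the 5 others, which widens their spread, and without it they called 0 to 4 genes for 4 of the strains and 252 for K11. Among libraries, Pearson's r over the tested genes ran from 0.76 to 0.83 between NCYC361 and the other strains, from 0.89 to 0.96 between different strains among the others, and was 0.97 between the NCYC361 replicates.

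Of the gene lists examined, the iron regulon had the highest median relative difference. Its 27 listed genes together took 8.28% (95% Wilson interval 8.24 to 8.31) and 9.05% (9.02 to 9.08) of the reads in genes in the NCYC361 libraries, against 0.185 to 0.672% in the 10 others. Of the 27 genes, 18 were higher in NCYC361 and none was lower, where 25.3% of all genes tested were higher. For 24 of them both NCYC361 libraries lay above all 10 others, as they did for 44% of all genes tested. That median was 2.91. The call held under all 3 scalings for 16 genes, where 6.71% of all genes tested were higher.

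**Figure D1:**
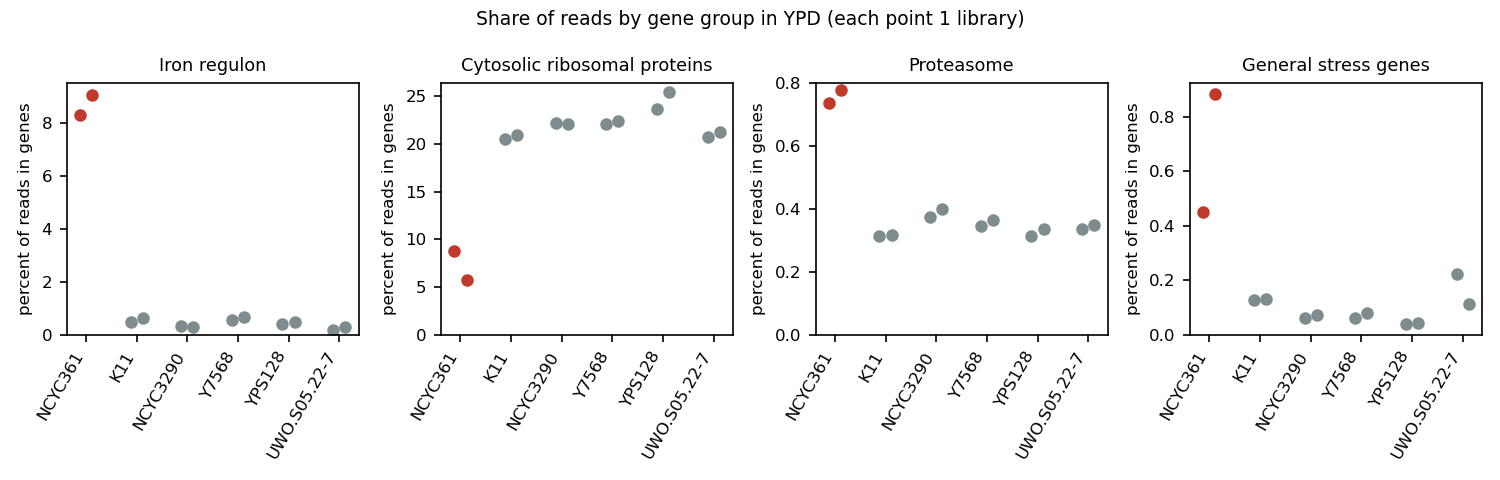
Percent of the reads in genes (vertical axis, from 0) that 4 gene groups took in each YPD library, with NCYC361 in red at the left and the other 5 strains in grey, 2 points for the 2 libraries of each strain. The iron regulon took 8.28 and 9.05% in NCYC361 and at most 0.672% elsewhere, and the ribosomal protein genes 8.75 and 5.75% in NCYC361 and at least 20.5% elsewhere.

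Among the genes for siderophore-binding wall proteins, FIT3 reached 20805 and 25034 RPKM in the NCYC361 libraries, against a lowest, median and highest of 6.94, 55.9 and 488 RPKM in the other 10. The groups did not overlap, and the relative log2 difference was 7.84 ± 2.21 (SE; limma adjusted p = 0.0271, 0.0587 without the strain YPS128). FIT1 had 1946 and 2089.7 RPKM in NCYC361, against 1.77, 2.65 and 33.7 RPKM in the others (relative difference 8.29 ± 1.41, limma adjusted p = 0.00603). FIT2, of the same family, had 5432 and 6149 RPKM in NCYC361, against 1.95, 57.7 and 732 RPKM. It did not pass the test, with an adjusted p of 0.0895 from limma, although the groups did not overlap. The other strains spread widely, from a mean of 3.57 RPKM in NCYC3290 to 637 RPKM in K11.

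The siderophore transporter genes were likewise high in both NCYC361 libraries. ARN1 had 2797 and 3072 RPKM in NCYC361, against 23.2, 60.4 and 289 RPKM in the others (4.74 ± 1.17, limma adjusted p = 0.0161). SIT1 had 1365 and 1494 RPKM in NCYC361, against 31.5, 142 and 284 RPKM (2.86 ± 0.76, limma adjusted p = 0.0161). The remaining pair was without overlap between the groups as well. ENB1, for the enterobactin transporter, had 4082 and 4399 RPKM in NCYC361, against 0.0707, 32.8 and 150 RPKM in the others. ARN2 had 2985 and 3375 RPKM in NCYC361, against 0.0691, 21.7 and 248 RPKM. Both missed the threshold, with limma adjusted p of 0.116 and 0.109. The lowest ENB1 levels were those of K11 and NCYC3290, with means of 0.123 and 0.109 RPKM, and the lowest ARN2 levels those of UWO.S05.22-7 and NCYC3290, with 0.3 and 0.178 RPKM, at or close to the level of the added read.

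**Figure D2:**
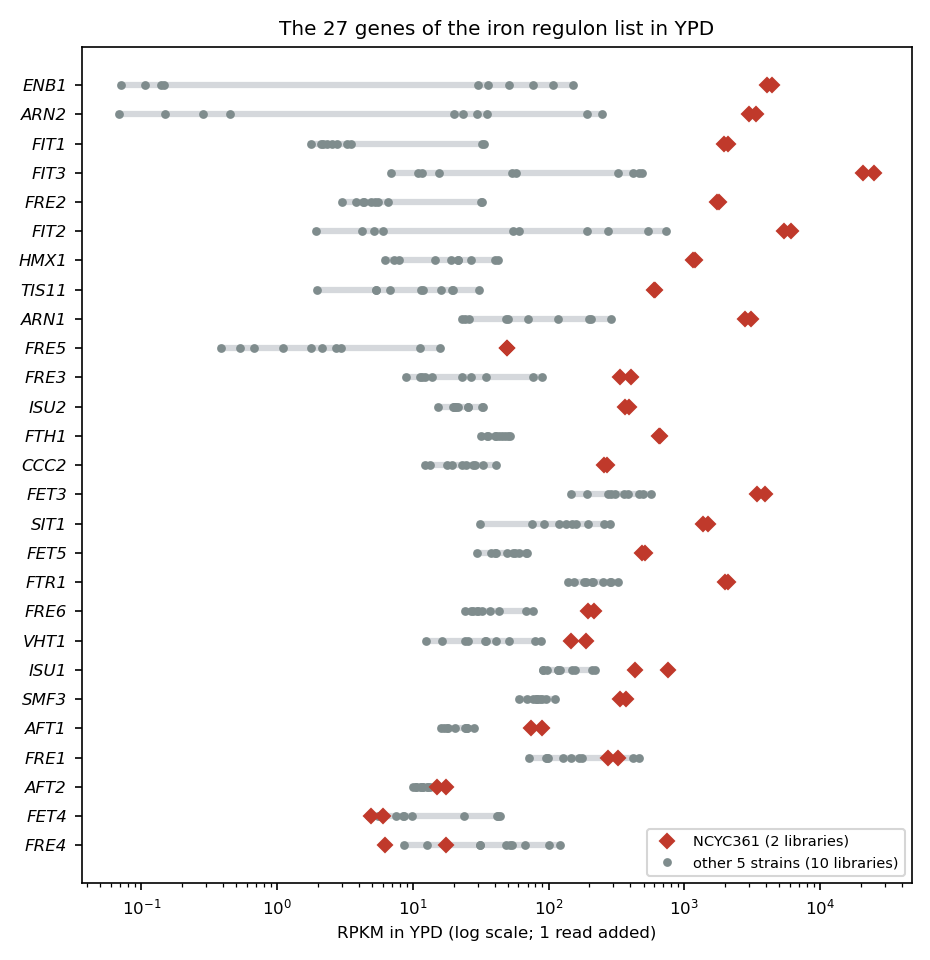
Levels of the 27 iron regulon genes in YPD, with RPKM on a log axis, the 2 NCYC361 libraries as red diamonds, the 10 libraries of the other strains as grey circles and a grey bar over their range. Genes run from the largest positive difference at the top. The red diamonds lie to the right of every grey circle for 24 of the 27, as they would for 44% of all genes tested.

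FET3, the multicopper oxidase of high-affinity iron uptake, stood at 3453 and 3943 RPKM in NCYC361, against 146, 336 and 569 RPKM in the others, and its partner permease FTR1 at 1996 and 2083 RPKM, against 139.9, 209.9 and 327 RPKM. The relative differences were 2.90 ± 0.49 for FET3 and 2.62 ± 0.33 for FTR1 (limma adjusted p = 0.00381 and 0.00138). The vacuolar counterparts moved too: FTH1 had 662 and 652 RPKM in NCYC361, against 32, 42.2 and 52.2 RPKM, and the oxidase gene FET5 509 and 487 RPKM, against 29.7, 52 and 69.6 RPKM. FTH1 was higher by 3.35 ± 0.25 with the smallest adjusted p of the list (limma, 0.000483), and FET5 by 2.73 ± 0.38 (limma, 0.00178). CCC2, which supplies copper to Fet3 in the secretory pathway, and SMF3, a vacuolar iron exporter, were higher by 2.91 ± 0.48 and 1.47 ± 0.24 on the relative scale (limma adjusted p = 0.00368 and 0.00188).

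Of the metalloreductase genes in the list, FRE2 was high in NCYC361, with 1744 and 1814 RPKM, against 3.02, 5.1 and 32.4 RPKM in the others (relative difference 7.42 ± 1.08, limma adjusted p = 0.00355). FRE3 passed as deposited (3.44 ± 1.04, limma adjusted p = 0.0258) but not with all libraries at the same median (0.0521). FRE6, of the vacuole, was higher by 1.87 ± 0.53 (limma adjusted p = 0.0146). FRE1, the main reductase for both iron and copper, had 327 and 274 RPKM in NCYC361, against 71.5, 137 and 461 RPKM in the others. Its groups overlapped and limma gave an adjusted p of 0.343. FRE5 had 49 and 49.1 RPKM in NCYC361, against 0.384, 1.95 and 15.8 RPKM, without overlap but with an adjusted p of 0.0587 (limma). FRE4 had 17.6 and 6.26 RPKM in NCYC361, against 8.56, 50.1 and 121 RPKM in the others, and FET4, the low-affinity iron transporter, 6.06 and 4.89 RPKM, against 4.79, 9.23 and 44 RPKM. Both overlapped, with negative relative differences of -2.56 ± 1.08 and -1.96 ± 1.13 that did not pass (limma adjusted p = 0.198 and 0.38).

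Genes that recycle or spare iron were also in the list. HMX1, a heme oxygenase that frees iron from heme, had 1163 and 1199 RPKM in NCYC361, against 6.25, 20.2 and 42.8 RPKM in the others. TIS11, also called CTH2, encodes an RNA-binding protein that speeds the decay of transcripts for iron-using proteins, and had 602 and 609 RPKM in NCYC361, against 1.96, 11.7 and 30.9 RPKM. Neither gene overlapped between the groups, and the relative differences were 5.49 ± 0.87 and 5.30 ± 0.99 (limma adjusted p = 0.00423 and 0.00714). The scaffold gene ISU2 of iron-sulfur cluster assembly was higher by 3.42 ± 0.32 (limma adjusted p = 0.000767), and its paralog ISU1 by 1.52 ± 0.43 as deposited (limma adjusted p = 0.0121), not with all libraries at the same median (0.0579). VHT1, the biotin importer, had 147 and 187 RPKM in NCYC361, against 12.4, 34.3 and 88.4 RPKM, and did not pass (limma adjusted p = 0.0699). AFT1, the regulator itself, had 74.6 and 88.8 RPKM in NCYC361, against 16.1, 22.2 and 28.3 RPKM in the others (1.32 ± 0.30, limma adjusted p = 0.0058), and its paralog AFT2 had 17.4 and 15.1 RPKM, against 10, 11.7 and 13.5 RPKM, and did not pass (limma adjusted p = 0.211), with a sign that depended on the scaling. LSO1, which is not in the list and encodes a small protein made in iron shortage, had the largest positive relative difference among the genes taken by the naming rule. It had 889.9 and 913 RPKM in NCYC361, against 0.356, 0.851 and 23.4 RPKM in the others, with K11 the highest of these (8.84 ± 1.88, limma adjusted p = 0.0121).

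In the hydrolysates the iron genes took a small share of the reads in every strain. In SynH -HTs the 27 genes took 0.104 to 0.139% of the reads in genes in NCYC361, against 0.0972 to 0.312% in the other strains, and in SynH 0.18 to 0.409%, against 0.118 to 0.271%. FIT1 had 0.888 and 0.521 RPKM in NCYC361 in SynH -HTs, against 0.887, 2.41 and 13 RPKM in the others. In SynH it had 78.9 and 11 RPKM in NCYC361, against 1.58, 2.48 and 12.7 RPKM. The NCYC361 contrast itself differed between YPD and SynH -HTs for 21 of the 27 genes and between YPD and SynH for 20, each time in the higher direction, where 16.6% and 20.6% of all genes tested did so (limma on the within-strain differences between media, adjusted p under 0.05). The SynH replicates of NCYC361 lay far apart for FIT1 and for FIT3, which had 658 and 126 RPKM there.

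The copper uptake genes CTR1, CTR3 and FRE7 were lower in NCYC361. CTR3, a plasma membrane copper transporter, had 1 and 0 reads in the NCYC361 libraries, against 205 to 1596 reads in the other 10. CTR1, the other high-affinity copper transporter, had 3.66 and 2.4 RPKM in NCYC361, against 28.4, 100.4 and 298 RPKM in the others (-5.61 ± 0.98, limma adjusted p = 0.0118). FRE7, a copper-regulated reductase gene, had 0 reads in both NCYC361 libraries and 7 to 37 in the others. The median of the other libraries was at least 5.05-fold above the floor of 3 reads in the shallower NCYC361 library, and the lowest of them 2.3-fold. CTR1, CTR3 and FRE7 are known targets of Mac1, the activator that responds to copper shortage, and each was lower in NCYC361 under all 3 scalings. Not all genes of copper uptake were lower. FRE1, the reductase for both iron and copper, had a relative difference of 0.36 ± 0.75 (limma adjusted p = 0.343). CTR2, another gene of the copper list, was higher by 0.69 as deposited (limma adjusted p = 0.00899), but not under all 3 scalings. MAC1 itself had 26.9 and 31.3 RPKM in NCYC361, against 8.83, 10.2 and 12.3 RPKM, and was higher as deposited (limma adjusted p = 0.00976) but not with all libraries at the same median (0.0881). ATX1, the chaperone that hands copper to Ccc2, had 353 and 247 RPKM in NCYC361, against 33.9, 60.2 and 76.8 RPKM in the others (1.79 ± 0.36, limma adjusted p = 0.00491). Of the 12 copper genes, 5 were higher and 3 lower, against 25.3% and 7.89% of all genes tested, and under all 3 scalings 1 was higher and 3 were lower.

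In the hydrolysates the copper transporter genes had fewer reads in the other strains too. CTR1 had 3.32 and 1.69 RPKM in NCYC361 in SynH -HTs, against 3.31, 6.2 and 24.6 RPKM in the others, and the groups overlapped. CTR3 had 0 and 0 reads in NCYC361 there, against 1 to 16 in the other strains. In SynH it had 0 and 2 reads in NCYC361, against 1 to 47, with overlap. The differences of the contrast between YPD and SynH -HTs did not pass for CTR1 and CTR3 (limma adjusted p = 0.119 and 0.055). For genes with 0 or 1 read in NCYC361, a gene missing from the strain, a sequence too far from the reference to align and a transcript that was not made cannot be told apart from these data.

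**Figure D3:**
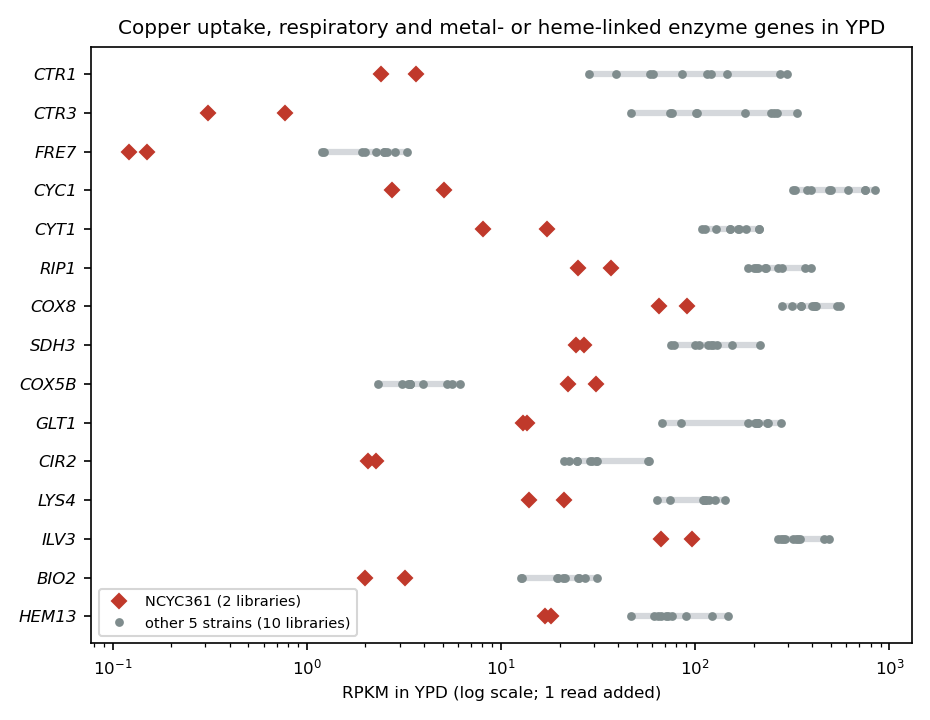
Levels in YPD of copper uptake genes, respiratory genes and genes for enzymes linked to iron, copper or heme, with RPKM on a log axis, the 2 NCYC361 libraries as red diamonds, the 10 libraries of the other strains as grey circles and a grey bar over their range. NCYC361 lies to the left of every other library for all genes shown but COX5B, where it lies to the right, and its FRE7 values are those of the added read alone. Both NCYC361 libraries lay below all 10 others for 11.4% of all genes tested and above them for 44%. The genes are a selection, and list members whose groups overlapped, such as QCR6, CYC7 and COX17, are not shown.

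Part of the respiratory chain genes were lower in NCYC361, most of them in the cytochrome complexes. Together the genes of the chain and ATP synthase took 0.484 to 0.552% of the reads in genes in NCYC361, against 0.494 to 1.11% in the other strains, and these ranges overlapped. Of the 38 nuclear genes of the chain and ATP synthase, 16 were lower and 1 was higher, under all 3 scalings, where 7.02% and 6.71% of all genes tested did so. The median relative difference was -1.90. CYC1, for the main cytochrome c, had 5.08 and 2.73 RPKM in NCYC361, against 318, 496 and 839.8 RPKM in the others, from 5 and 3 reads in NCYC361, against 443 to 2006. Its relative difference of -7.70 ± 0.45 was the second largest negative one among the genes named by rule, after CTR3 (limma adjusted p = 0.000483). CYT1, cytochrome c1, had 8.1 and 17.2 RPKM, against 108, 158 and 214 RPKM, and RIP1, the Rieske iron-sulfur protein, 25 and 36.9 RPKM, against 187, 231 and 397 RPKM. None of these 3 genes overlapped between the groups, and limma gave adjusted p of 0.000914 for CYT1 and 0.00202 for RIP1.

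Divided by complex, a split made after the values were seen, the lower genes were 7 of 9 of the cytochrome bc1 complex (median relative difference -2.77), 6 of 9 of cytochrome c oxidase (-2.01), 2 of 4 of succinate dehydrogenase (-1.95) and CYC1 of the 2 cytochrome c genes. As deposited, 7.89% of all genes tested were lower. Of the 12 ATP synthase genes limma called none, with a median of -0.49. For 3 of the 12 both NCYC361 libraries lay below all 10 others, as they did for 11.4% of all genes tested. COX8, an oxidase subunit gene, had 64.8 and 90.4 RPKM in NCYC361, against 280.2, 405 and 553 RPKM in the others (-2.98 ± 0.29, limma adjusted p = 0.00254). SDH3, of succinate dehydrogenase, had 24.3 and 26.8 RPKM in NCYC361, against 74.6, 118 and 217 RPKM (-2.80 ± 0.41, limma adjusted p = 0.0101). The 1 higher gene of the 38 was COX5B, the oxidase subunit isoform used when oxygen or heme is scarce, with 22 and 30.6 RPKM in NCYC361, against 2.32, 3.42 and 6.14 RPKM (2.15 ± 0.42, limma adjusted p = 0.0052). CYC7, the other cytochrome c gene, overlapped between the groups and did not pass (relative difference 0.35, limma adjusted p = 0.399). The contrast of CYC1 differed between YPD and SynH -HTs by -6.84 on the unshifted log2 scale (limma adjusted p = 0.00796). Of the 38 genes, 1 differed between these media in the higher direction and 2 in the lower, where 16.6% and 5.15% of all genes tested did so. The count of 2 is near that share, so it is no result about the list.

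Outside the chain, single genes linked to iron-sulfur clusters or to heme and its synthesis were picked after their values were seen, so they form no list and give no count. GLT1, glutamate synthase, an iron-sulfur enzyme, had 13 and 13.7 RPKM in NCYC361, against 67.1, 208 and 276 RPKM in the others (-4.35 ± 0.60, limma adjusted p = 0.00647). LYS4, homoaconitase of lysine synthesis, had 21.1 and 13.9 RPKM in NCYC361, against 63.3, 112 and 142 RPKM. ILV3, the dihydroxyacid dehydratase of branched-chain amino acid synthesis, had 96.4 and 66.8 RPKM in NCYC361, against 268, 325 and 490.1 RPKM. LYS4 and ILV3 both encode iron-sulfur enzymes, and neither overlapped (limma adjusted p = 0.00312 and 0.00417). BIO2, the iron-sulfur enzyme of biotin synthesis, had 3.22 and 2 RPKM in NCYC361, against 12.6, 21.1 and 31.2 RPKM (-3.65 ± 0.43, limma adjusted p = 0.00402). CIR2, a mitochondrial protein similar to an iron-sulfur flavoprotein of electron transfer, had a relative difference of -4.45 ± 0.50, and HEM13 of heme synthesis one of -2.76 ± 0.42 (limma adjusted p = 0.00313 and 0.0117). LEU1, isopropylmalate isomerase, had 47.4 and 44.8 RPKM in NCYC361, against 55.3, 86.1 and 106 RPKM, and did not pass as deposited (limma adjusted p = 0.065) but did with all libraries at the same median (0.0357). The aconitase ACO1, at -1.24 ± 0.25, and the catalases CTA1, at -1.52 ± 0.47, and CTT1, at -0.43 ± 0.98, did not pass as deposited (limma adjusted p = 0.0918, 0.175 and 0.888). These p belong to the unshifted differences, which lie 0.62 above the relative ones.

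The glutamate enzymes changed in both directions. GDH3, a glutamate dehydrogenase that makes glutamate without iron, had 80 and 75.8 RPKM in NCYC361, against 0.073, 0.3 and 0.924 RPKM in the others, with no overlap (7.56 ± 1.22, limma adjusted p = 0.00491). Its isozyme gene GDH1 had 243 and 198 RPKM in NCYC361, against 389, 524 and 702 RPKM, and was lower (-1.83 ± 0.29, limma adjusted p = 0.0198). Upstream of them, IDH1 of isocitrate dehydrogenase had 599 and 564 RPKM, against 58.2, 102 and 176 RPKM, and CIT2, peroxisomal citrate synthase, 206 and 257 RPKM, against 13.6, 18.8 and 70.4 RPKM (limma adjusted p = 0.00889 and 0.0181, both higher). Of the 18 genes of the tricarboxylic acid and glyoxylate cycle list, 6 were higher and 1 lower, against 25.3% and 7.89% of all genes tested, and under all 3 scalings 2 and 1, against 6.71% and 7.02% of all genes tested.

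Of the lists examined, the cytosolic ribosomal protein genes had the largest share of lower members. Of 139 tested, 132 were lower in NCYC361 and none was higher, and 105 were lower under all 3 scalings, against 7.89% and 7.02% of all genes tested that were lower. The unshifted median of the list was -1.62, beside -1.59 for the 148 tested genes with a mean log2 RPKM above 10. Those 148 can include members of the list. The list holds RPP1, which encodes a ribonuclease P subunit and not a ribosomal protein, and which did not pass (limma adjusted p = 0.945). Both NCYC361 libraries lay below all 10 others for 131, as they did for 11.4% of all genes tested. Together they took 8.75% (95% Wilson interval 8.72 to 8.79) and 5.75% (5.72 to 5.77) of the reads in genes in NCYC361, against 20.5 to 25.4% in the other strains. RPL26B had 1042 and 611 RPKM in NCYC361, against 3615, 3896 and 4131 RPKM, and RPS21A 479 and 306 RPKM, against 1899, 2036 and 2188 RPKM. The 2 NCYC361 libraries lay further apart on the log scale than the range of the 10 others. The relative differences were -2.90 ± 0.13 and -3.03 ± 0.13 (limma adjusted p = 0.000483 for both). The SE and p rest on the spread among the other 5 strain means, and so leave out the gap between the NCYC361 libraries. RPL1A and RPS4A had relative differences of -3.24 ± 0.15 and -2.66 ± 0.12, but each has a copy (RPL1B at 99.4% and RPS4B at 98.1% identity in coding sequence), so reads could have been split between copies. The contrast differed between YPD and SynH -HTs for 126 of the 139 genes, all in the lower direction, where 5.15% of all genes tested did so, and between YPD and SynH for 117, where 5.39% did.

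Genes of ribosome assembly and of growth followed in part. Of 68 ribosome biogenesis genes, 12 were lower under all 3 scalings and none was higher, where 7.02% of all genes tested were lower. As deposited 4 were higher and 12 lower, where 25.3% and 7.89% of all genes tested were. With all libraries at the same median 39 were lower, as were 907 of the 5942 genes tested. GAR1, of small nucleolar ribonucleoproteins, had 80.9 and 53.6 RPKM in NCYC361, against 175, 201 and 255 RPKM (-2.26 ± 0.18, limma adjusted p = 0.00151), and NSR1, a nucleolin-like protein, 264 and 94.3 RPKM, against 378, 427 and 571 RPKM. The ribosome-associated chaperone SSB1 had 827 and 576 RPKM in NCYC361, against 1609, 2399.6 and 2717 RPKM (limma adjusted p = 0.00501), but its copy SSB2 shares 97.5% of its coding sequence. Among 26 histone and cell cycle genes 8 were lower under all 3 scalings and none was higher. HTB2, a histone H2B gene, had 189.6 and 152 RPKM in NCYC361, against 811, 895 and 1046 RPKM in the others (-3.04 ± 0.14, limma adjusted p = 0.000483). Mitochondrial ribosomal protein genes had 1 higher and 1 lower of 67 as deposited, where 25.3% and 7.89% of all genes tested were. After quantile normalization they had 1 and 23, where 638 and 884 of the 5942 genes tested were. With all libraries at the same median they had 1 and 15, where 447 and 907 of the 5942 were.

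**Figure D4:**
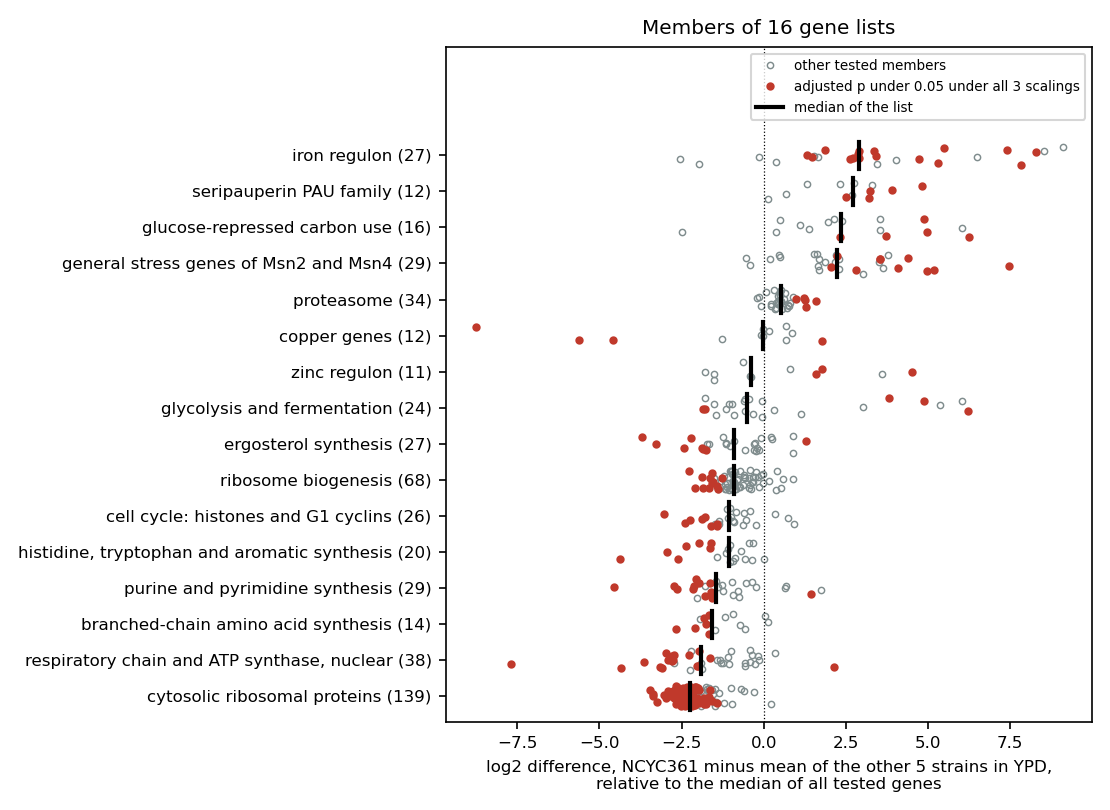
Log2 differences in YPD relative to the median of all tested genes (horizontal axis) for the members of 16 gene lists, with the number tested in brackets, red points for genes called under all 3 scalings, open grey points for the other members and a black bar at each list's median. Iron regulon members lie to the right, with a median of 2.91, and ribosomal protein and respiratory genes to the left, with medians of -2.24 and -1.90.

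Genes for building amino acids and nucleotides that passed under all 3 scalings were nearly all lower, where 7.02% of all genes tested were lower and 6.71% higher. Of 20 genes for histidine, tryptophan and aromatic amino acids 7 were lower under all 3 scalings, of 14 for branched-chain amino acids 6, of 28 for sulfate assimilation and methionine 5, and of 9 for lysine 2, with none higher in these lists. One of the 6 from the branched-chain list is GDH1, a glutamate dehydrogenase, which serves amino acid synthesis at large. HIS1, the first enzyme of histidine synthesis, had 20.6 and 19.2 RPKM in NCYC361, against 196, 258 and 407 RPKM in the others (-4.37 ± 0.34, limma adjusted p = 0.000914). ASN1, an asparagine synthetase, had 39.6 and 38 RPKM, against 358, 478 and 996 RPKM, and SAM1, an S-adenosylmethionine synthetase, 77.3 and 61.8 RPKM, against 425, 500 and 842 RPKM. Both were lower with no overlap (limma adjusted p = 0.00252 and 0.00203). Of 29 purine and pyrimidine genes 12 were lower and 1 higher, with the same counts under all 3 scalings. The purine salvage gene HPT1 had 67.5 and 39.3 RPKM in NCYC361, against 364, 469 and 1334 RPKM (-4.02 ± 0.59, limma adjusted p = 0.00812).

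An isozyme pair of purine synthesis split. ADE17 had 9.73 and 10.5 RPKM in NCYC361, against 79.7, 172 and 270.2 RPKM in the others (-4.56 ± 0.53, limma adjusted p = 0.00355). ADE16, which encodes the same enzyme activity, had 312 and 332 RPKM in NCYC361, against 57.8, 81.5 and 97 RPKM, and was the 1 purine gene that was higher (1.44 ± 0.27, limma adjusted p = 0.0031). In SynH -HTs the unshifted differences were 0.79 for ADE17 and -0.32 for ADE16.

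All 34 proteasome genes were above the others, with small relative differences. Both NCYC361 libraries exceeded all 10 others for each of the 34 genes, as they did for 44% of all genes tested, and the group took 0.739% (95% Wilson interval 0.729 to 0.750) and 0.778% (0.769 to 0.788) of the reads in genes in NCYC361, against 0.313 to 0.400% in the other strains. The test called 29 higher and none lower as deposited, where 25.3% of all genes tested were higher. After quantile normalization it called 23 higher, as it did 638 of the 5942 genes tested. With all libraries at the same median it called 5 higher, as it did 447 of the 5942. The same 5 passed under all 3 scalings, where 6.71% of all genes tested did. The median relative difference, from the values as deposited, was 0.52. Unshifted it was 1.14. The unshifted median of all tested genes was 0.48 at a mean log2 RPKM of 4 to 6, and -0.08 at 6 to 8. RPT1, a base ATPase, had 207 and 212 RPKM in NCYC361, against 38.9, 44.6 and 54.7 RPKM (1.60 ± 0.23, limma adjusted p = 0.00138), and PRE8, a core subunit, 231 and 224 RPKM, against 69.4, 92.9 and 105 RPKM (0.73 ± 0.17, limma adjusted p = 0.00261, 0.141 with all libraries at the same median).

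General stress genes were high in NCYC361 and differed between its replicates. The 29 genes took 0.449% (95% Wilson interval 0.441 to 0.458) and 0.883% (0.873 to 0.893) of the reads in NCYC361, against 0.039 to 0.223% in the other strains. Of the 29, 18 were higher and none lower as deposited, and 10 were higher under all 3 scalings, against 25.3% and 6.71% of all genes tested, and the median relative difference was 2.24. HSP26, a small heat shock protein gene, had 46.7 and 105 RPKM in NCYC361, against 0.345, 1.22 and 6.31 RPKM in the others, and DDR48 36.3 and 55.8 RPKM, against 0.216, 0.758 and 2.85 RPKM (relative differences 4.96 ± 1.09 and 5.17 ± 0.84, limma adjusted p = 0.0114 and 0.00444). PGM2, a phosphoglucomutase that feeds glycogen and trehalose synthesis, had 187 and 445 RPKM, against 4.64, 12.3 and 31.1 RPKM (4.09 ± 0.73, limma adjusted p = 0.00555). TKL2, the minor transketolase, had 134 and 188 RPKM in NCYC361, against 0.117, 0.577 and 2.33 RPKM (7.46 ± 1.30, limma adjusted p = 0.00638). TMA10, a ribosome-associated protein gene known to respond to stress, had 861 and 1517 RPKM, against 0.384, 4.44 and 15.5 RPKM (7.85 ± 1.55, limma adjusted p = 0.00961). The ribosomal protein share was lower, and the stress share higher, in the same NCYC361 library.

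Of 16 genes usually repressed by glucose, 6 were higher as deposited and 5 under all 3 scalings, against 25.3% and 6.71% of all genes tested. None was lower in these 2 counts, but 1 was lower with all libraries at the same median and 1 after quantile normalization. The median relative difference was 2.36. The other 10 did not pass as deposited, among them SUC2, the invertase gene, at -2.49 (limma adjusted p = 0.0905) and HXK1, a hexokinase gene, at 6.04 (0.0742). POT1, the thiolase of fatty acid breakdown, had 28.5 and 49.8 RPKM in NCYC361, against 0.0956, 0.446 and 0.638 RPKM in the others (6.26 ± 0.89, limma adjusted p = 0.00309). POX1, the oxidase of the same pathway, had 9.07 and 16.4 RPKM in NCYC361, against 0.0785, 0.289 and 0.621 RPKM (4.96 ± 0.84, limma adjusted p = 0.00507). HXT5, a hexose transporter made in slow growth, had 20.6 and 49.9 RPKM, against 0.218, 0.535 and 1.26 RPKM, with no overlap (5.20 ± 0.63, limma adjusted p = 0.00152). HXT6 was higher by 4.95 ± 0.90 (limma adjusted p = 0.00647), but HXT7 has 99.8% identity to it in coding sequence. Of 11 hexose transporter and sensor genes 2 were higher under all 3 scalings and none was lower.

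Among 24 genes of glycolysis and fermentation, 6 were higher and 4 lower as deposited, against 25.3% and 7.89% of all genes tested, and 3 and 2 under all 3 scalings, against 6.71% and 7.02% of all genes tested. The higher count as deposited is near that of all genes. ENO2, the main enolase, had 5387 and 4447 RPKM in NCYC361, against 9359, 11193 and 13411 RPKM in the others (-1.79 ± 0.18, limma adjusted p = 0.00551). FBA1, the aldolase, had 4998 and 4358 RPKM in NCYC361, against 9237, 11321 and 12130.2 RPKM (-1.85 ± 0.15, limma adjusted p = 0.00236). PDC6, the minor pyruvate decarboxylase, had 15.8 and 33.3 RPKM in NCYC361, against 0.0825, 0.218 and 0.375 RPKM (6.21 ± 0.80, limma adjusted p = 0.00217). GLK1, glucokinase, had 628 and 884 RPKM in NCYC361, against 2.87, 14.5 and 91.3 RPKM (4.87 ± 1.49, limma adjusted p = 0.0302), a call lost without the strain NCYC3290, the strain Y7568 or 1 library of UWO.S05.22-7. GPM2, similar to phosphoglycerate mutase, had 64.7 and 71.3 RPKM in NCYC361, against 0.107, 0.478 and 1.04 RPKM (6.77 ± 0.97, limma adjusted p = 0.00324).

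Smaller sets were called among the zinc and NAD genes. Of 11 zinc genes 3 were higher under all 3 scalings, where 6.71% of all genes tested were, led by the high-affinity zinc transporter ZRT1, with 700 and 689.6 RPKM in NCYC361, against 10.5, 16.8 and 43.7 RPKM (4.51 ± 0.67, limma adjusted p = 0.00315). The vacuolar zinc exporter ZRT3 had 317 and 348 RPKM, against 46.2, 64.4 and 76.9 RPKM (limma adjusted p = 0.00152). The zinc list did not move as a whole. Its relative differences ran from -1.78 to 4.51 with a median of -0.39. With all libraries at the same median 3 members were higher and 1 lower, as were 447 and 907 of the 5942 genes tested. Of 14 NAD synthesis genes 3 were higher under all 3 scalings. Among these BNA2, the first step from tryptophan, had 20.7 and 26.6 RPKM in NCYC361, against 0.264, 0.54 and 0.777 RPKM (5.0 ± 0.66, limma adjusted p = 0.0022). NMA2, a later step, had 80.6 and 92.4 RPKM in NCYC361, against 7.57, 11.1 and 15.7 RPKM (2.35 ± 0.37, limma adjusted p = 0.00252).

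Genes of sterol synthesis and of growth without oxygen were called in both directions. Of 27 ergosterol genes 7 were lower and 1 higher under all 3 scalings, where 7.02% and 6.71% of all genes tested were. CYB5, cytochrome b5, a heme protein that passes electrons to sterol and lipid enzymes, had 70.7 and 49.1 RPKM in NCYC361, against 279, 489.5 and 863 RPKM (-3.69 ± 0.50, limma adjusted p = 0.00647). ERG1, squalene epoxidase, had 163 and 138 RPKM, against 295, 552 and 737 RPKM (limma adjusted p = 0.0131). The 1 higher gene was UPC2, the sterol regulator, with 28.9 and 26.6 RPKM in NCYC361, against 4.94, 8.37 and 9.67 RPKM (limma adjusted p = 0.0134). AUS1, a sterol importer used without oxygen, had 138 and 134 RPKM, against 1.26, 2.44 and 13.2 RPKM (4.70 ± 1.16, limma adjusted p = 0.0158), and OLE1, the fatty acid desaturase, 3974 and 4171 RPKM, against 618, 827 and 1347 RPKM (limma adjusted p = 0.0034). Of 22 anaerobic and heme-regulated genes 3 were higher and 1 lower under all 3 scalings, and of 12 genes of the seripauperin PAU family, known from anaerobic and cold growth, 5 were higher. PAU members are close copies of each other (PAU12 and PAU24 share 98.9% of the coding sequence), so their reads cannot be assigned with certainty.

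In the cell wall list of 26 genes, 3 were higher and 5 lower under all 3 scalings, against 6.71% and 7.02% of all genes tested. SCW4, a wall glucanase, had 2024 and 2627 RPKM in NCYC361, against 439.9, 506 and 539.5 RPKM (1.59 ± 0.14, limma adjusted p = 0.000483), and GAS1, a glucan-remodelling enzyme, 517 and 438 RPKM, against 1191, 1384 and 1638 RPKM (-2.19 ± 0.18, limma adjusted p = 0.0018). FLO11, the wall flocculin of filamentous growth, had 166 and 145 RPKM, against 0.292, 2.02 and 20.6 RPKM (5.60 ± 1.76). It passed as deposited (limma adjusted p = 0.0348) but not with all libraries at the same median (0.0589) or without the strain NCYC3290 or YPS128 (0.0678 to 0.0682).

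The other genes among the 15 largest positive differences have roles across the cell. PRY1, a secreted sterol-binding protein, had 480.1 and 586 RPKM in NCYC361, against 3.33, 5.42 and 16.5 RPKM (5.83 ± 0.60, limma adjusted p = 0.00105). HBN1, a nitroreductase-like protein, had 566 and 665 RPKM in NCYC361, against 2.12, 5.79 and 27 RPKM (5.97 ± 1.08, limma adjusted p = 0.00675). GID10, a substrate receptor of a ubiquitin ligase, had 34.6 and 87.4 RPKM, against 0.114, 0.346 and 1.88 RPKM (6.53 ± 1.26, limma adjusted p = 0.00833). The rule that named these genes required both NCYC361 libraries to lie above the 10 others. ATG34, a receptor of selective autophagy, had 62.2 and 96.8 RPKM in NCYC361, against 0.162, 0.903 and 2.97 RPKM, and AMS1, the vacuolar mannosidase it carries, 58.5 and 88.1 RPKM, against 0.111, 1.09 and 4.25 RPKM (limma adjusted p = 0.0146 and 0.0181).

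The other genes among the 15 largest negative differences were MYG1, COA2 (an assembly factor of cytochrome c oxidase), YLR112W and YER053C-A. MYG1 had 12.9 and 11.5 RPKM in NCYC361, against 85.7, 150.4 and 163 RPKM (-4.10 ± 0.29, limma adjusted p = 0.000791), and COA2 5.39 and 5.44 RPKM, against 35.9, 60.1 and 99.2 RPKM (-4.09 ± 0.42, limma adjusted p = 0.00232). YLR112W had 1 read in each NCYC361 library, against 25 to 55 in the others. YER053C-A had 5 and 10 reads in NCYC361, against 33 to 679 (limma adjusted p = 0.0495), and its call was lost in 9 of 17 fits that left out a library or a strain.

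In the hydrolysates NCYC361 differed little from the other strains by the same test. In SynH -HTs the test called 0 of the 5942 genes (0%) between NCYC361 and the other strains by limma, with 114 at an unadjusted p under 0.05, and 2 (0.0337%) both with all libraries at the same median and after quantile normalization. In SynH it called 1 (0.0168%), AIF1, with 234 at an unadjusted p under 0.05, and again 2 under each of the other scalings (0.0337%). In SynH -HTs the replicate numbers paired the libraries. Limma on the 12 libraries, where the spread is that between replicates and not between strains, called 734 genes there (12.4%) with the replicate number as a block and 204 (3.43%) without it. Over the 5942 genes the median size of the unshifted difference was 0.858 in YPD, 0.238 in SynH -HTs and 0.264 in SynH. Over the 1973 genes called in YPD, which were chosen on their YPD difference, it was 1.60 in YPD, 0.228 in SynH -HTs and 0.245 in SynH. The difference of the contrast itself passed for 1295 genes between YPD and SynH -HTs (21.8%) and for 1545 between YPD and SynH (26%). The media share no libraries, but the same 6 strains enter each.

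**Figure D5:**
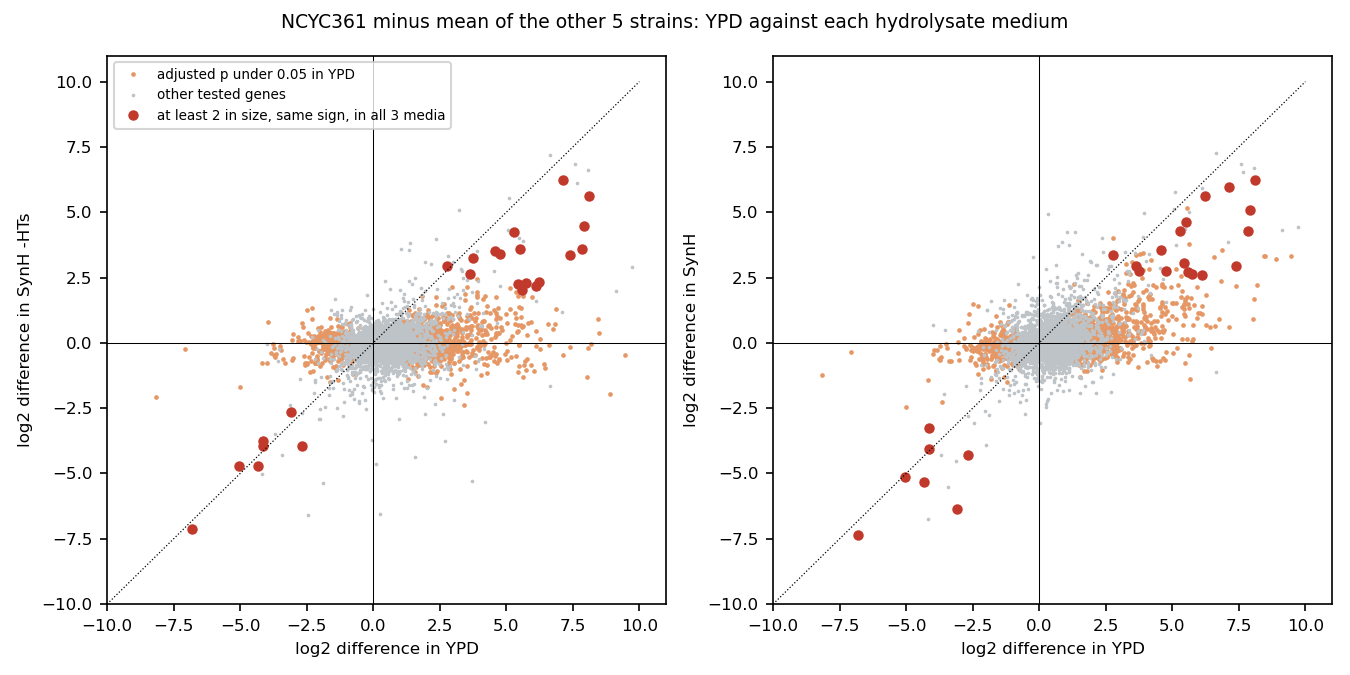
Unshifted log2 differences, NCYC361 minus the mean of the other 5 strains, in YPD (horizontal axis) against SynH -HTs (left panel) and SynH (right panel) for all 5942 genes, with genes called in YPD in orange, the others in grey and the dotted line at equal values. Of all genes, 2574 have a size of at least 1 in YPD, 403 in SynH -HTs and 581 in SynH, and of the 1973 called in YPD, and so chosen on the horizontal axis, 1707, 118 and 197 do. The 24 red points are at least 2 in size with the same sign in all 3 media.

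A small set of genes differed in all 3 media. Of the 646 genes called in YPD with an unshifted difference of at least 2 in size, 24 had the same sign and at least that size in both hydrolysates, 17 higher and 7 lower. This size was chosen after the values were seen, and no test was made on the set. AIF1, a mitochondrial cell death effector, had 0 reads in all 6 NCYC361 libraries, against 49 to 446 reads in the other strains in YPD, 46 to 282 in SynH -HTs and 54 to 1224 in SynH. In YPD the median of the other libraries was at least 26.6-fold above the floor of 3 reads in the shallower NCYC361 library. COS10, its neighbour on the chromosome, likewise had 0 reads in all 6, against 11 to 292 in the other strains in YPD. AQY3 and AGP3, a water channel gene and an amino acid permease gene that are also neighbours, had 0 reads in all 6 as well, against 21 to 163 and 5 to 98 in YPD. Their medians were at least 7.75-fold and 5.63-fold above the same floor. For COS10 the fold was at least 4.15. The lowest library of the other strains lay 16.1-fold above that floor for AIF1 and 5.13-fold for AQY3, but only 1.95-fold for COS10 and 1.14-fold for AGP3. The call of COS10 was lost in 9 of 17 fits that left out a library or a strain, and that of AGP3 without the strain NCYC3290 (0.0512).

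Among the genes higher in all 3 media was ENA5, a sodium pump gene of a family of near copies. It had 135 and 171 reads in NCYC361 in YPD, 80 and 100 in SynH -HTs and 76 and 41 in SynH, against at most 6 in any library of the other strains. Its copy ENA2 shares 99.2% of the coding sequence, so a read could have come from either. STE4, the beta subunit of the pheromone-responsive G protein, had 28.7 and 26.1 RPKM in NCYC361 in YPD, against 0.35, 1.41 and 3.14 RPKM, 16.2 and 11.2 RPKM in SynH -HTs, against 0.187, 1.36 and 2.9 RPKM, and 11.6 and 14.2 RPKM in SynH, against 0.613, 0.98 and 2.05 RPKM. The groups did not overlap in any medium, and in YPD limma gave an adjusted p of 0.0205. GPA1, the alpha subunit, was higher in YPD by 3.27 ± 0.65 (limma adjusted p = 0.00714), and in both hydrolysates its groups overlapped. Of 14 mating and haploid-specific genes 3 were higher under all 3 scalings, where 6.71% of all genes tested were. RNR3, a ribonucleotide reductase subunit induced by DNA damage, was among the 24, with 51.8 and 38 RPKM in NCYC361 in YPD, against 0.215, 0.896 and 5.12 RPKM (4.88 ± 1.29, limma adjusted p = 0.0196).

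Some genes had reads almost exclusively in NCYC361 in YPD. With at least 30 reads in each NCYC361 library and at most 3 in each of the 10 others, 8 genes qualified. VBA3, a vacuolar permease gene, had 114 and 108 reads in NCYC361 and 0 in all 10 others, but its copy VBA5 has 99.3% identity in coding sequence. YLR030W had 52 and 95 reads in NCYC361 and 0 in the others, and its neighbour YLR031W 46 and 89, against at most 1. Both have no named role, and in the hydrolysate libraries of NCYC361 neither had more than 2 reads. The retrotransposon frame YBR012W-B had 131 and 248 reads in NCYC361 and 0 in the others, and the frame YGR161C-D has 99.2% identity to it. The lower NCYC361 library was at least 29.0-fold above the floor of 3 reads in the shallowest other library for VBA3, 17.6-fold for YLR030W and 44.3-fold for YBR012W-B. YPL278C had 35 and 45 reads in NCYC361, against at most 1. PHM8, a phosphatase gene, had 57 and 123, and HHY1 33 and 60, against at most 3 for each, and the eighth was a retrotransposon frame below the level tested. YPL277C, beside YPL278C and one of the 15 largest positive differences (7.23 ± 0.84, limma adjusted p = 0.00152), had 692 and 849 reads in NCYC361, against at most 11. YPL277C and YPL278C have 96.9% and 99.7% identity to YOR389W, so a read could have come from either.

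In the other lists few genes passed under all 3 scalings, where 6.71% of all genes tested were higher and 7.02% lower, and most of the counts are near what those shares give, so they are no result about the lists. Both directions occurred in some: of 20 nitrogen catabolite repressed genes 2 were higher and 2 lower, of 17 amino acid permease genes 1 and 1, of 8 genes for aromatic amino acid breakdown 1 and 1, and of 20 chaperone genes 2 and 4. Higher genes alone were found among the 20 targets of Yap1 (2), the 13 drug efflux genes (1), the 14 weak acid genes (2), the 20 phosphate genes (1), the 15 thiamine and pyridoxine genes (1), the 7 galactose genes (1) and the 17 osmotic genes (2). Lower genes alone were found among the 19 aldehyde reductase genes (1), the 5 biotin genes (1) and the 10 COS genes (1). None passed under all 3 scalings among the arginine, maltose, inositol, flocculin, sporulation, a and alpha mating type, killer toxin and mitochondrially encoded genes.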

How the data were processed

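RNA was extracted with hot phenol, depleted of rRNA and made into stranded total RNA libraries, per the labels' protocols. Trimmomatic 0.30, Bowtie2 and HTSeq 0.6.0 are named in the submitters' processing notes, but no build, annotation or strand setting is stated there or in the labels, so no coordinates or sequences are printed. The values are log2 RPKM, deposited by the authors with 1 read added per gene before the log2. The added read lets some short genes without reads pass the filter on level. Whole reads were recovered from the values, of which 99.86% were whole to within 0.05 of a read, and 6025 of 6717 features matched a RefSeq gene table by name.

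Replicates were averaged to 6 strain means, and limma 3.58.1 (R 4.3.3, moderated test with a trend on level) tested NCYC361 against the other 5 strains, assuming that the lone NCYC361 mean varies like the others. The spread is that between strains. In SynH -HTs the replicate numbers paired the strains. Replicate deviations correlated at 0.42 to 0.72 over all 15 strain pairs there, and replicate 1 had the higher median in all 6 strains. In SynH the deviations correlated at -0.08 to 0.64, with 7 of 15 pairs over 0.1. Replicate 1 had the higher median in 0 of the 6 strains in SynH. A single gene tested alone by exact permutation of 1 strain against 5 cannot go below p = 0.167, two-sided. The filter was a mean of 1 RPKM over the YPD libraries. Python 3.11.15 made the tables.

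The text names, among genes that passed with both NCYC361 libraries outside the range of the other 10, a mean of at least 10 RPKM and a match in the RefSeq table, the 15 largest differences in each direction. For these genes the lack of overlap between the groups was set by the rule. It also draws on up to 4 called genes per list, by smallest adjusted p, and on genes with at most 3 reads in one group and at least 30 in each library of the other. Other named genes, among them most iron list members, were picked after their values were seen. The genes, lists and rules were chosen with earlier results of these data known. NCYC361 libraries titled SynHv were taken as SynH. Wilson intervals and floors cover counting error only. Alternatives were other scalings, filters, a pseudocount, recovered reads with voom, fits on the 12 libraries, and leaving out each library or strain.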

Additional observations from a re-analysis of the deposited data

Results flagged for a closer look

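Among the 5 other strains, 1 strain mean lay far from the other 4 in YPD for 9 of 120 named genes examined. Chance alone flags about 1 in 20 such groups, which gives 6 of 120. The count of 9 is near that, so the values below are a description only. On the log2 RPKM scale K11 stood at 4.28 for LSO1, 5.05 for FIT1 and 5.0 for FRE2, above the other 4 strains in these iron-linked genes and still below NCYC361. K11 also stood apart at 6.23 for GLT1, 6.59 for MYG1, 10.3 for HPT1, 13.21 for FBA1 and 4.99 for COS10. Y7568 stood apart at 9.91 for ASN1.

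The NCYC361 contrast differed between YPD and SynH -HTs for 1295 genes and between YPD and SynH for 1545, by limma's test of the difference itself. Of the 30 genes named for the largest differences in YPD, 25 passed that test against SynH -HTs, where 21.8% of all genes tested did. The 30 were chosen on their YPD values, which also enter the tested difference, so their count gives no separate evidence. In the iron-linked genes the contrast was larger in YPD by 9.91 for LSO1, 10.87 for FIT1, 7.55 for FIT3 and 9.34 for FRE2, as unshifted log2 values. In the other raised genes it was larger by 8.08 for TMA10, 8.23 for GDH3, 8.27 for TKL2, 7.63 for GID10, 7.42 for PRY1, 7.22 for ATG34, 6.69 for HBN1, 6.13 for AMS1, 4.23 for YPL277C and 4.03 for GPM2. In the lowered genes the difference between the media was -6.84 for CYC1, -4.73 for ADE17, -3.7 for HIS1, -3.52 for GLT1, -3.44 for CIR2, -3.36 for MYG1, -3.27 for ASN1, -3.21 for COA2, -3.2 for YLR112W, -3.17 for CYT1 and -2.79 for HPT1.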

How the results depend on the processing

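The count of 1973 genes in YPD (1504 higher, 469 lower) stayed within 1.5 times under no filter (2027), a mean of at least 10 RPKM (1501), log2(RPKM + 1) (2094), no trend (1897), voom on recovered reads (2306) and leaving out 1 library or strain (1415 to 2559 in all, 1033 to 2014 higher, 382 to 582 lower). Equal medians gave 447 higher and 907 lower, and quantile normalization 638 and 884; 916 and 1026 of the 1973 were called in the same direction there, and none in the opposite one. Limma on the 12 libraries, where the spread is that between replicates and not between strains, called 4497 (3492 and 1005), and with the replicate block 4555 (3521 and 1034). In YPD the replicate numbers did not pair the strains: deviations correlated at -0.16 to 0.26 over 15 strain pairs, 6 of them over 0.1. In SynH they correlated at -0.08 to 0.64, with 7 over 0.1. Strain means hold both replicates of every strain. In SynH -HTs and in SynH the other scalings called 2 genes each and leaving out 1 library 0 to 2. Fits on the 12 libraries, added there after seeing the data, called 204 genes in SynH -HTs (734 with the replicate block) and 639 in SynH (1184 with the replicate block). Without NCYC361, added after seeing the data, the comparisons of the other strains called 4 genes for UWO.S05.22-7, 4 for Y7568, 252 for K11 and 0 for YPS128. With equal medians, also added after seeing the data, UWO.S05.22-7 had 2 and K11 7. AFT2, which did not pass, turned from a positive unshifted difference to -0.29 with equal medians and -0.56 after quantile normalization. The causes were not tested.

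Of the 110 called genes named, 104 kept their call in all 17 fits that left out a library or strain. FIT3 lost it without YPS128, AGP3 without NCYC3290, FLO11 and GLK1 without NCYC3290 among others, and COS10 and YER053C-A in 9 fits each (adjusted p up to 0.0935), 1 of which left out an NCYC361 library. Equal medians ended the call for 5 of the 110 and voom for 7. Depth limits the genes with few reads, whose fitted differences depend on the added read.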
